A study of Mus musculus with 40 samples.

Results

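The mitochondrial genome of the mouse encodes 37 of the 55492 genes in the count table, and all 37 were followed here. They were taken by position, as every gene on chromosome M, and comprise 2 rRNAs, 13 mRNAs and 22 tRNAs. Counts came from single spermatocytes of C57BL/6J mice aged 6 to 8 weeks, with 20 cells named Pachytene and 20 named Metaphase I. Spermatocytes had been fractionated by size through elutriation, and okadaic acid, an inhibitor of the protein phosphatases PP1 and PP2A, was given at 4 µM for 5 h to push them into metaphase I. The protocol text is the same for all 40 cells, so stage, drug and time in culture form 1 contrast, and the sources do not say whether Pachytene cells met the drug. The labels name no animal or culture. The 20 cells of a group were therefore treated as 1 sample, differences between the groups were described and not tested, and every interval is an exact 95% interval for counting error only.

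Mitochondrial DNA is transcribed from both strands into long precursors. The tRNAs that lie between the other genes are excised from these precursors, which frees the rRNAs and mRNAs. Most of the mRNAs receive A tails. The mRNAs encode subunits of complexes I, III and IV and of the ATP synthase, and the rRNAs form the core of the mitochondrial ribosome. In the testis, spermatocytes depend on oxidative metabolism, and their mitochondria change shape and number through meiosis.

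The deposited totals ran from 165048 to 2325564 counts per cell, and 4 libraries stood apart in their mitochondrial share. Metaphase I replicate 19 had 17.5% and Metaphase I replicate 18 had 11.2% of their counts on chromosome M, Pachytene replicate 5, the shallowest library, had 7.12%, and Pachytene replicate 4 had 0.0643%. The group medians were 2.16% in Pachytene and 1.70% in Metaphase I. In Metaphase I replicate 19, 7 of 10 Sertoli cell markers had counts, with 14049 CPM (counts per 1000000 counts of the cell) in all. The other 39 libraries had 0 to 214 CPM. The highest of them was Metaphase I replicate 18, with counts for 3 of these markers. Replicate 19 held 99.3% of the Metaphase I counts of Sox9, 100% of those of Wt1, 96.7% of those of Clu and 95.3% of those of Vim. Gata4, Amh and Rhox5 were at 0 in all 40 libraries. All 8 spermatocyte markers were present in replicate 19, at 9756 CPM. In the other libraries these spermatocyte markers summed to between 8080 CPM, in Metaphase I replicate 18, and 24729 CPM. In the median cell Ldhc made up most of this sum. Its median was 17768 CPM in Pachytene and 18410 in Metaphase I, against 20723 and 21286 for all 8 markers. A further split came from the X chromosome, which is silenced in pachytene: 8 libraries, 4 in each group, had over 0.3% of counts from X-linked genes. Spermatid markers were also high in most of them, at 4638 to 5342 CPM in Pachytene replicates 2, 3, 7 and 19, and at 4311, 1671 and 1158 CPM in Metaphase I replicates 3, 7 and 17, against 44.0 CPM in Metaphase I replicate 19. In the other 32 libraries they reached at most 1194 CPM, in Pachytene replicate 5. All results below are given with and without these libraries where it matters, and their part in the results was not tested.

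Of the 37 genes, 9 had a count in all 40 cells and 24 had none in any. The 9 were both rRNAs and the mRNAs mt-Nd1, mt-Nd2, mt-Nd4, mt-Nd5 and mt-Nd6 of complex I, mt-Co1 of complex IV and mt-Cytb of complex III. Of the 16174 genes that reached 20 counts over both groups, 23.3% had a count in every cell. The 24 silent entries were 19 tRNAs and 5 mRNAs, namely mt-Co2 and mt-Co3 of complex IV, mt-Atp6 and mt-Atp8 of the ATP synthase, and mt-Nd4l of complex I. A count of 0 over the series allows up to 0.0956 CPM at a limit of 3 counts. The silent mRNAs sit next to each other on the map, from mt-Co2 to mt-Nd4l, and the only mRNA between them with counts was mt-Nd3, with 277. Their flanking genes mt-Co1 and mt-Nd4 had 19308 and 16425 counts.

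The map position of the zeros coincides with a nuclear copy of the mitochondrial genome. On chromosome 1 of GRCm38, 7 unprocessed pseudogenes between positions 24611535 and 24616197, on the minus strand, match chromosome M from 6381 to 11042 in GENCODE M21. Gm28661 is identical to mt-Co2 over 681 of 684 bases, Gm10925 to mt-Atp6 over 678 of 681, Gm28437 to mt-Co3 over 783 of 784 and Gm10222 to mt-Nd4l over 294 of 297. For the partly covered genes, Gm28439 equals the first 876 of 1378 bases of mt-Nd4, and Gm29216 matches the end of mt-Co1, with an exact run over its last 479 of 1545 bases. Gm28438, the copy of mt-Nd3, differs at a single base, T3C, counted from the 5′ end of the gene. The sequences show how close the pairs are: the ends of mt-Co2 (chrM:7644-7693, plus strand) and Gm28661 (chr1:24614885-24614934, minus strand), with no difference, the starts of mt-Nd3 (chrM:9459-9498) and Gm28438 (chr1:24613080-24613119), and the edge of the copied stretch in mt-Co1 (chrM:6381-6440) and Gm29216 (chr1:24616138-24616197), all from GENCODE M21 transcripts, with differing bases in capitals:
mt-Co2: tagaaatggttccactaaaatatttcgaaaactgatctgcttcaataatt
Gm28661: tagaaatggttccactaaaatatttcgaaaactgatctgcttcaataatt
mt-Nd3: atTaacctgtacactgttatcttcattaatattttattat
Gm28438: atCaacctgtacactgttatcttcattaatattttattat
mt-Co1: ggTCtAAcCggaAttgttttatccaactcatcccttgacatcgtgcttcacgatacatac
Gm29216: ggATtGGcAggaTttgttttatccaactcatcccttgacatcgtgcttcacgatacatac

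In mt-Co1, counted from its 5′ end, the capitals are T1056A, C1057T, A1059G, A1060G, C1062A and A1066T, and past them the mitochondrial and nuclear sequences are the same to the last base. Among the 13 mRNAs, 5 had an exact nuclear match over at least 95% of their length, and 4 of these were at 0, mt-Nd3 being the other. Of the other 8 mRNAs, 1 was at 0, mt-Atp8. Its last 43 bases, 21.1% of the gene, overlap mt-Atp6 and are in Gm10925. By map order, a copy of the rest would fall in the unannotated interval between Gm10925 and Gm28661. The sequence of that interval was not read. Among the mRNAs found in every cell, the longest exact match was 876 bases for mt-Nd4 and 479 for mt-Co1. It was 129 for mt-Nd2, 95 for mt-Nd5, 47 for mt-Cytb and 39 for mt-Nd6. For mt-Nd1 the search returned no match. It covered annotated transcripts outside chromosome M and not the nuclear genome. A read from an identical stretch fits both places, and the sources do not say how such reads were counted. A count of 0 for mt-Co2, mt-Co3, mt-Atp6, mt-Atp8 or mt-Nd4l may therefore not measure its RNA, and mt-Nd3, mt-Nd4 and mt-Co1 are uncertain over their copied parts. The part of the copies in the zeros was not tested. The 7 copies had 194 counts in all, 103 in Pachytene and 91 in Metaphase I, and 64 of the latter were in Metaphase I replicate 19. Of the 194, the copies of mt-Co3, mt-Co2, mt-Atp6 and mt-Nd4l had 55, 49, 22 and 2. Those of mt-Co1, mt-Nd4 and mt-Nd3 had 54, 8 and 4.

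**Figure D1:**
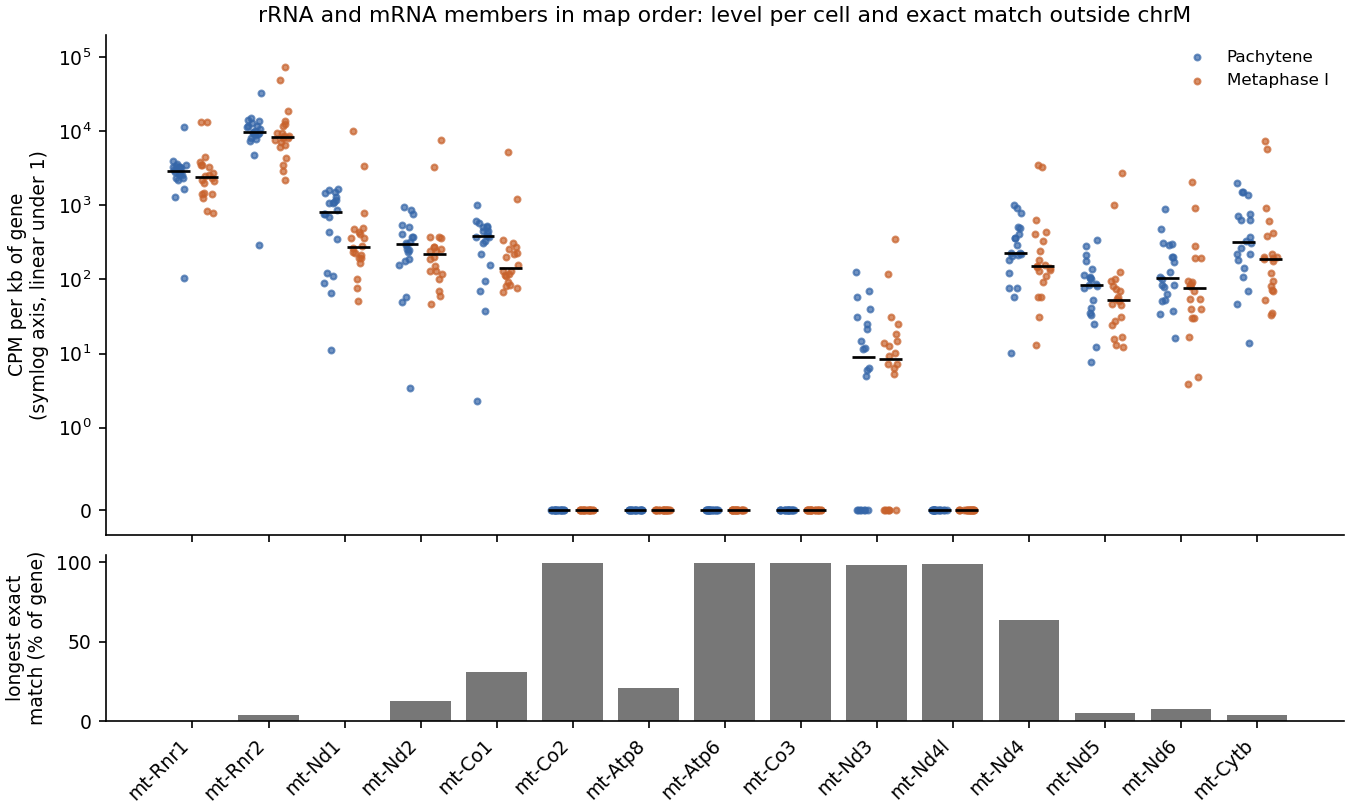
Level of each rRNA and mRNA gene in CPM per kb of gene (upper panel, symlog axis; 1 point per cell, line at the median of 20 cells, Pachytene in blue and Metaphase I in orange) and longest exact match to a transcript outside chromosome M as a percentage of the gene (lower panel), in map order. The 5 genes at 0 in every cell lie together, and 4 of them have a match over at least 95% of their length. The search returned no match for mt-Rnr1 and mt-Nd1, which are drawn at 0.

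The rRNAs made up most of the mitochondrial counts. mt-Rnr2, the 16S rRNA of the large subunit (chrM:1094-2675), had 11878 CPM per kb over all cells, and mt-Rnr1, the 12S rRNA of the small subunit (chrM:70-1024), had 3098. By summed count, mt-Rnr2 ranked 2nd among all genes in Pachytene and 1st in Metaphase I, and mt-Rnr1 ranked 15th and 13th. Their proportion was steady, since mt-Rnr2 held a median of 85.7% of the rRNA counts of a Pachytene cell and 85.6% of those of a Metaphase I cell, with a range of 78.7% to 90.8% over the 40 cells.

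The cDNA was primed with oligo(dT), and the rRNAs are known to carry only short A tails. Their A-richest windows are shown because such stretches can also pair with oligo(dT), with the 20 bases of the window in capitals, for mt-Rnr2 (chrM:1473-1522, 16 A), mt-Rnr1 (chrM:710-759, 15 A) and, as the mRNA with a count in every cell that has the most, mt-Nd2 (chrM:4025-4074, 14 A), all on the plus strand:
mt-Rnr2: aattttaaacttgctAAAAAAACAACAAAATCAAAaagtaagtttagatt
mt-Rnr1: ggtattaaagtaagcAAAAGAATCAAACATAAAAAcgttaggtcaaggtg
mt-Nd2: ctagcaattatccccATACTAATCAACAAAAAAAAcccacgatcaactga

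Windows of this kind are common: of 111410 GENCODE M21 transcripts of at least 500 bases outside chromosome M, 12.2% have a window with 16 A or more and 20.6% one with 15 or more. These transcripts were not matched to the rRNAs in length, and a longer transcript has more windows. Where the cDNA of the rRNAs started was not tested, since the counts hold no positions.

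In the typical cell the rRNA share differed little between the groups. It was 1.84% of all counts in the median Pachytene cell (lowest 0.0564%, highest 6.34%) and 1.55% in the median Metaphase I cell (0.420% to 13.0%). The ranges overlapped over most of their span, with 14 of 20 Metaphase I cells below the Pachytene median and 2 above the highest Pachytene cell. mt-Rnr1 had a median of 2763 CPM in Pachytene (98.9 to 10930) and 2310 in Metaphase I (746 to 12801). mt-Rnr2 had 15650 CPM (465 to 52421) against 13193 (3449 to 117635). Summed over cells the order turned, at 1.90% (1.89% to 1.90%) in Pachytene and 2.53% (2.52% to 2.54%) in Metaphase I, 1.33-fold higher (1.33 to 1.34). Metaphase I replicates 18 and 19 together held 35.2% of the summed Metaphase I rRNA counts and 7.59% of all Metaphase I counts. On the log2 scale, with 1 CPM added to each group, the summed ratio of Metaphase I over Pachytene was 0.42, and it was 0.049 without replicate 19 and -0.096 without replicates 18 and 19.

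The mRNAs differed more. They held 0.267% of all counts in the median Pachytene cell (lowest 0.00795%, highest 0.783%) and 0.123% in the median Metaphase I cell (0.0343% to 4.50%), a median 2.16-fold lower. Of the 20 Metaphase I cells, 16 lay below the Pachytene median, 2 lay above it within the Pachytene range, and 2 lay above the highest Pachytene cell. These 2 were replicates 18 and 19, at 2.21% and 4.50%, which were 17.9-fold and 36.5-fold above their group's median. The groups overlapped at both ends, because Pachytene replicates 2, 3, 4 and 19 were also low, at 0.0439%, 0.0489%, 0.00795% and 0.0719%.

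**Figure D2:**
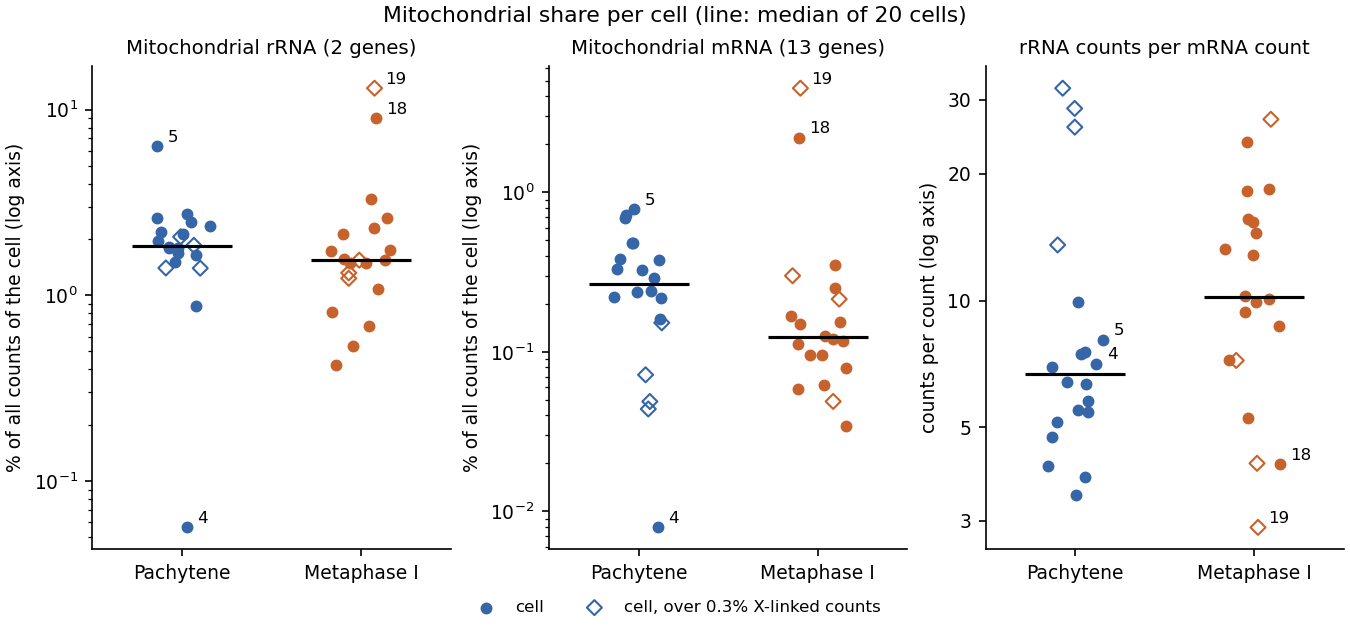
Share of all counts of a cell from mitochondrial rRNA (left) and mRNA (centre) in percent, and rRNA counts per mRNA count (right), all on log axes, with 1 point per cell, a line at the median of 20 cells and the numbers of 4 replicates that stand apart; open diamonds are the cells with over 0.3% X-linked counts. Metaphase I replicates 18 and 19 lie above all Pachytene cells in both shares, while the median mRNA share is 0.267% in Pachytene and 0.123% in Metaphase I.

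The summed mRNA share ran the other way from the medians. It was 0.290% (0.288% to 0.293%) in Pachytene and 0.433% (0.430% to 0.437%) in Metaphase I, 1.49-fold higher (1.48 to 1.51), a log2 ratio of 0.58. Replicate 19 alone held 53.4% and replicate 18 held 12.5% of the Metaphase I mRNA counts. The log2 ratio was -0.45 without replicate 19, -0.86 without replicates 18 and 19 and -0.62 with the 8 libraries high in X-linked counts left out. The ratio of medians on the same scale was -1.11. In the 16 cells of each group that remained without those 8 libraries, the median mRNA share was 0.330% in Pachytene and 0.119% in Metaphase I, 2.78-fold lower, and 14 of 16 Metaphase I cells lay below the Pachytene median. The depth of a cell hardly ordered these shares, with a Spearman correlation of 0.13 between total counts and mRNA share over the 40 cells.

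Because the mRNAs differed and the rRNAs did so less, the number of rRNA counts per mRNA count was higher in most Metaphase I cells. The median was 6.69 in Pachytene (3.45 to 32.0) and 10.2 in Metaphase I (2.89 to 27.0), and 16 of 20 Metaphase I cells lay above the Pachytene median. The high end of Pachytene was made up of replicates 2, 3, 7 and 19, the Pachytene libraries highest in spermatid markers, at 32.0, 28.6, 13.6 and 25.8. The highest Metaphase I cell, replicate 3 at 27.0, was likewise the highest of its group in these markers. Metaphase I replicates 7 and 17, which came next in these markers, were at 7.21 and 4.11, below the group median. Metaphase I replicate 9 was at 23.8 with 18.2 CPM of these markers, so the Metaphase I cells did not follow the markers throughout. The 2 Metaphase I libraries with the largest mitochondrial share were at the low end, replicate 18 at 4.08 and replicate 19 at 2.89. With the 8 libraries high in X-linked counts left out, the ratio was 3.45 to 9.93 in Pachytene (median 6.06, 16 cells) and 4.08 to 23.8 in Metaphase I (median 11.5, 16 cells), and 11 of the 16 Metaphase I cells lay above every Pachytene cell.

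**Figure D3:**
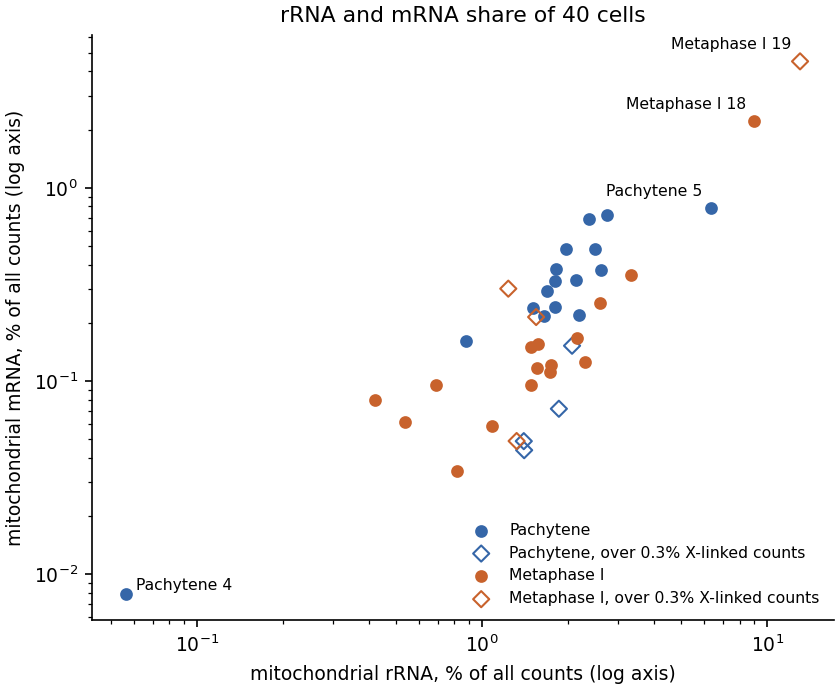
Mitochondrial rRNA share (x axis) and mRNA share (y axis) of the 40 cells, in percent of all counts on log axes; filled points and open diamonds are cells with up to and over 0.3% X-linked counts, Pachytene in blue and Metaphase I in orange. At an rRNA share near 2%, Metaphase I cells and the Pachytene cells with over 0.3% X-linked counts have less mRNA than the other Pachytene cells.

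Of the 37 genes, 11 had a summed count of at least 20, the 9 found in every cell plus mt-Nd3 and the tRNA mt-Tp. All 11 had a higher summed level in Metaphase I, and 2 of them, mt-Nd2 and mt-Nd5, were over 2-fold higher, where 8.49% of the 16174 genes with 20 or more counts were. None was over 2-fold lower, where 9.81% of the genes were, and by any size 49.9% of all these genes were higher and 50.1% lower. The median log2 ratio of the 11 genes was 0.56, against -0.00 over all genes tested. By medians over cells, 10 of the 11 were lower in Metaphase I and 2, mt-Nd1 and mt-Co1, were over 2-fold lower, where 33.1% of all genes were lower by any size (33.2% higher) and 5.35% were over 2-fold lower. None of the 11 had a median over 2-fold higher, against 3.52% of all genes. The genes neither lower nor higher by medians had equal medians in both groups, so 33.1% and 33.2% include such ties in their base. Without Metaphase I replicates 18 and 19 the sums of all 11 were lower, against 52.9% of all genes lower and 46.5% higher, with a median of -0.65. Again 2 were over 2-fold lower (10.2% of all genes), mt-Nd1 and mt-Co1, and 0 over 2-fold higher (3.85%). Without replicate 19 alone 9 of 11 were lower. With the 8 libraries high in X-linked counts left out, 9 of 11 were lower, against 46.8% of all genes lower and 50.3% higher. The same 2 genes were over 2-fold lower (3.69%) and 0 were over 2-fold higher (5.65%).

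**Figure D4:**
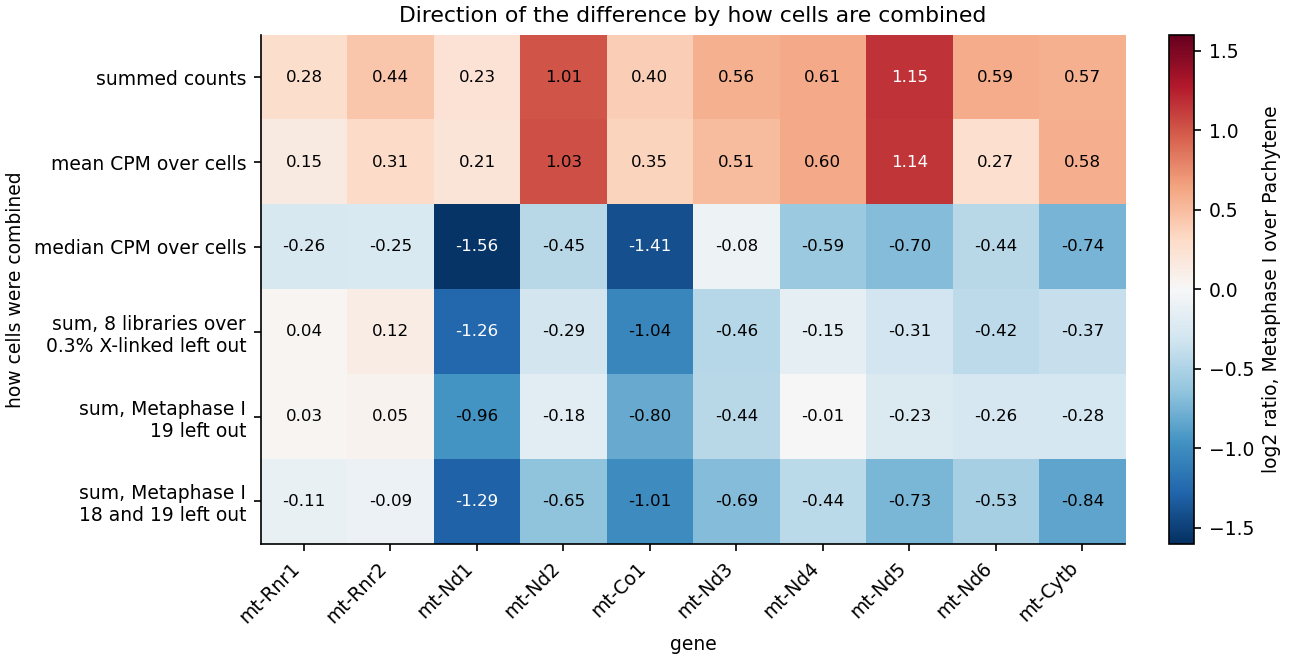
Log2 ratio of Metaphase I over Pachytene (colour and number, 1 CPM added) for the 10 rRNA and mRNA genes with at least 20 counts (columns), by the way the cells were combined (lines of the map). Sums and means over all cells are above 0 for all 10 genes, medians are below 0 for all 10, and without Metaphase I replicates 18 and 19 the sums are below 0 as well.

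Among the subunits of complex I, which takes electrons from NADH, mt-Nd1 (chrM:2751-3707) stood out by its medians. It had 776 CPM in the median Pachytene cell (10.6 to 1583) and 262 in the median Metaphase I cell (48.4 to 9593), 2.97-fold lower. Metaphase I replicates 18 and 19, at 3272 and 9593 CPM, were the 2 highest of the 40 cells, and the next was Pachytene replicate 14 at 1583. The other 18 Metaphase I cells reached at most 757 CPM, below the Pachytene median. The low Pachytene cells were replicates 4, 2, 3, 7 and 19, at 10.6, 62.7, 84.6, 106 and 116 CPM. Its log2 ratio was 0.23 by sums, -1.56 by medians and -1.29 by sums without replicates 18 and 19.

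mt-Nd2 (chrM:3914-4951), another core subunit of complex I, had 313 CPM in the median Pachytene cell (3.53 to 997) and 229 in the median Metaphase I cell (48.4 to 7928). Its sum was 2.02-fold higher in Metaphase I (1.96 to 2.09), but replicate 19 held 58.7% of those counts and the log2 ratio of 1.01 became -0.18 without it. mt-Nd5 (chrM:11742-13565), a proton-pumping subunit, had 156 CPM (14.1 to 618) and 95.6 CPM (22.2 to 4949). Its sum was 2.23-fold higher (2.14 to 2.33), replicate 19 held 63.8%, and the log2 ratio went from 1.15 to -0.23 without it. The groups overlapped for both genes, so the 2 genes over 2-fold higher by sums were so through 1 library.

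mt-Nd4 (chrM:10167-11544), also a proton-pumping subunit, had 310 CPM in the median Pachytene cell (14.1 to 1394) and 206 in the median Metaphase I cell (17.8 to 4808). Its log2 ratio was 0.61 by sums and -0.01 without replicate 19. mt-Nd6 (chrM:13552-14070) is the only mRNA on the minus strand, opposite to the other 12. It had 54.1 CPM (8.54 to 460) against 39.5 CPM (2.02 to 1076), and its sum was 1.51-fold higher (1.41 to 1.63), with a log2 ratio of 0.59 that became -0.26 without replicate 19. The sources do not give the strand setting of the counting, so mt-Nd6 and RNA of the opposite strand, which includes the last bases of mt-Nd5, cannot be told apart. mt-Nd3 (chrM:9459-9806), with 126 and 151 counts, was found in 13 Pachytene and 14 Metaphase I cells, with at most 44.3 and 122 CPM. After thinning to 340000 counts it was found in 8 of 19 and 10 of 17 cells.

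mt-Co1 (chrM:5328-6872), the catalytic subunit of complex IV, had a pattern like that of mt-Nd1. Its median was 592 CPM in Pachytene (3.53 to 1551) and 222 in Metaphase I (103 to 8154), 2.67-fold lower, while its sum was 1.32-fold higher (1.28 to 1.36) with 58.8% in replicate 19. The log2 ratio was 0.40 by sums, -1.41 by medians and -1.01 without replicates 18 and 19. mt-Cytb (chrM:14145-15288), the cytochrome b of complex III, had 366 CPM in the median Pachytene cell (15.9 to 2302) and 219 in the median Metaphase I cell (38.4 to 8415). Its sum was 1.49-fold higher (1.45 to 1.53), and its log2 ratio went from 0.57 to -0.28 without replicate 19. The highest Pachytene cell for mt-Cytb, replicate 16, held 23.6% of its Pachytene counts.

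Per kb of gene, summed over all cells, the mRNAs ran in the order mt-Nd1 (809 CPM per kb), mt-Cytb (646), mt-Nd2 (478), mt-Co1 (398), mt-Nd4 (380), mt-Nd6 (180), mt-Nd5 (151) and mt-Nd3 (25.4). The order of neighbours was not firm, and the ranges over cells of each pair of neighbours overlapped. By Pachytene medians mt-Co1, at 383 CPM per kb, stood above mt-Cytb at 320 and mt-Nd2 at 302, and by Metaphase I medians mt-Co1, at 144, stood below both, at 191 and 221. Since the libraries keep 3′ ends, counts need not scale with gene length. This order covers only the mRNAs with counts and is a description.

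The make-up of the mRNA counts varied from cell to cell within both groups. It covers only the 8 mRNAs with counts. The zeros of mt-Co2, mt-Co3, mt-Atp6, mt-Atp8 and mt-Nd4l may not measure their RNA, so these shares need not be those of all mitochondrial mRNA. mt-Nd1 was the most counted mRNA in 9 Pachytene and 7 Metaphase I cells, mt-Cytb in 7 and 6, mt-Co1 in 2 and 4, mt-Nd4 in 1 and 2, mt-Nd2 in 0 and 1, and mt-Nd6 in 1 and 0. The cell led by mt-Nd6 was Pachytene replicate 4, which had 45 mRNA counts in all. mt-Nd1 and mt-Co1 together held from 17.8% of the mRNA counts (Pachytene replicate 4) to 63.2% (Pachytene replicate 1), and mt-Cytb and mt-Nd4 together from 10.0% to 54.2% (Metaphase I replicates 8 and 13). The group medians were 39.9% and 40.7% for the former pair and 36.9% and 33.2% for the latter. The complex I genes together held a median of 62.0% in Pachytene (45.8% to 75.6%) and 62.9% in Metaphase I (57.6% to 73.7%). mt-Nd2 had the larger share in Metaphase I, with a median of 15.4% (9.89% to 33.9%) against 11.4% (4.44% to 22.3%), and mt-Nd1 the smaller, with 19.1% (9.89% to 43.5%) against 22.02% (6.94% to 41.8%). These ranges overlapped almost whole.

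**Figure D5:**
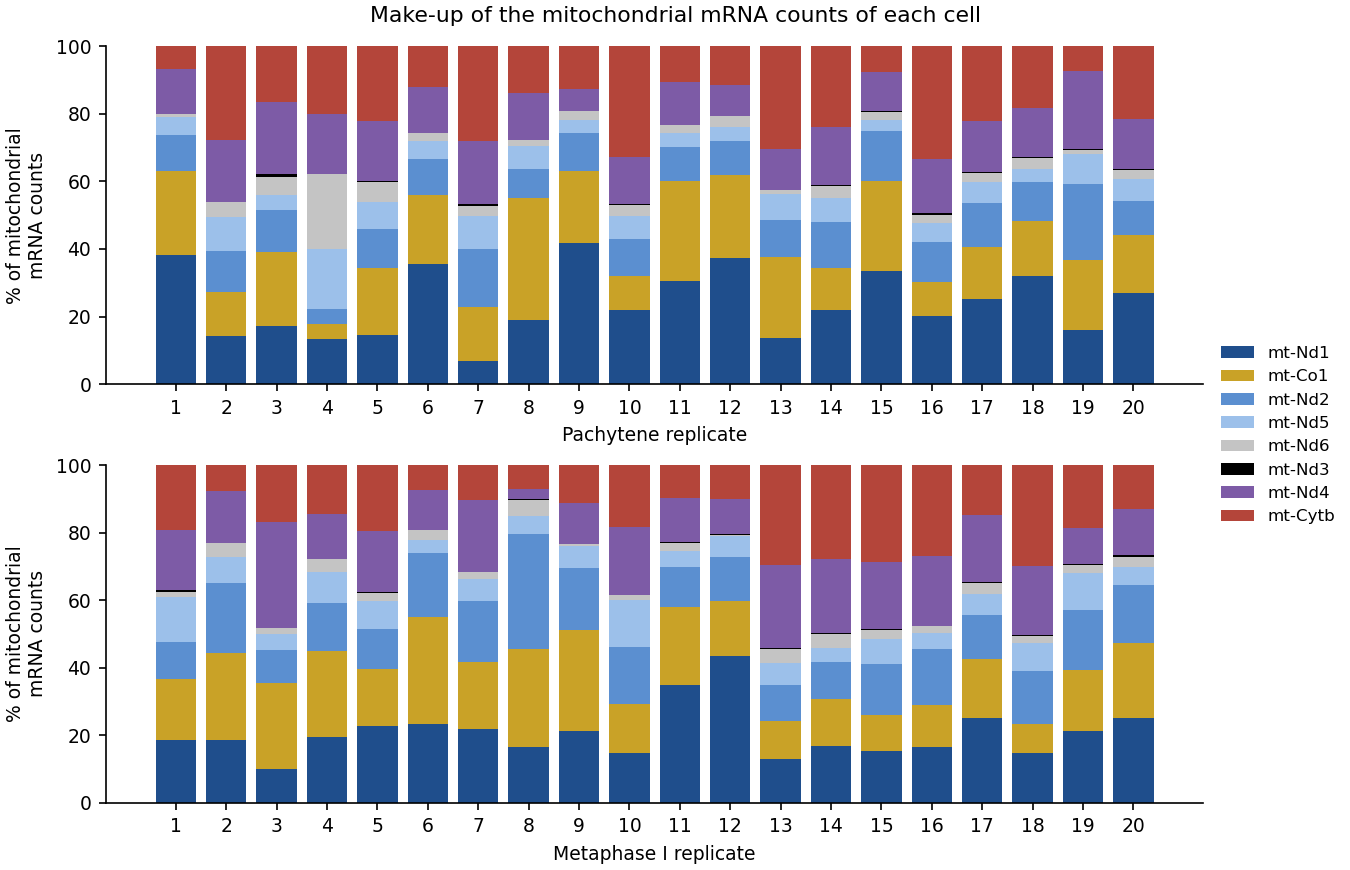
Percent of the mitochondrial mRNA counts of each cell from each of the 8 mRNAs with counts, stacked to 100, for the 20 Pachytene cells (upper panel) and the 20 Metaphase I cells (lower panel), by replicate number. Cells led by mt-Nd1 and cells with a large part from mt-Cytb and mt-Nd4 occur in both groups.

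Very few counts fell on the tRNAs, which end in an added CCA and not in an A tail. The Pachytene cells had 51 such counts and the Metaphase I cells 40, a fold of 1.01 (0.651 to 1.56). The proline tRNA mt-Tp (chrM:15356-15422, minus strand), shown whole because it held most of these, had 46 counts in 13 Pachytene cells and 39 in 11 Metaphase I cells, at most 9 in any cell:
mt-Tp: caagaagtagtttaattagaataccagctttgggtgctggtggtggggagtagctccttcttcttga

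The leucine tRNA mt-Tl2 (chrM:11671-11741) had 5 counts, 4 of them in Pachytene, and the glutamine tRNA mt-Tq (chrM:3772-3842, minus strand) had 1 count in Pachytene. The other 19 tRNAs were at 0. At these counts no difference between the groups was detectable for any tRNA.

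Across cells, the levels of the mitochondrial genes were correlated. The rRNA and mRNA shares had a Pearson correlation of 0.95 and a Spearman correlation of 0.79 over the 40 cells, and 0.74 and 0.75 without the 2 cells farthest from the median rRNA share. Within the groups the Spearman correlation was 0.77 in Pachytene and 0.78 in Metaphase I (20 cells each). Between the 7 mRNAs found in every cell, Spearman correlations ran from 0.76 to 0.94 over 21 pairs, and between an rRNA and an mRNA from 0.62 to 0.84 over 14 pairs. The values of a pair share the library and its total, and they are a description. The coefficient of variation over all 20 Pachytene cells was 56.3% and 69.0% for the rRNAs and 63.7% to 111% for the mRNAs found in every cell, with mt-Co1 and mt-Nd1 below mt-Rnr1. Over all 20 Metaphase I cells it was 103% and 128% against 195% to 267%. Without Pachytene replicates 4 and 5 it was 24.3% and 25.3% for the rRNAs and 49.2% to 101% for these mRNAs, and without Metaphase I replicates 18 and 19 it was 45.4% and 49.3% against 52.0% to 101%.

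Nuclear genes that serve mitochondrial RNA were read from 3 lists, by the same rule of size. Of 47 nuclear factors of mitochondrial transcription, processing and decay, 43 had 20 or more counts, with a median log2 ratio of 0.18. By sums 4 were over 2-fold higher and 1 over 2-fold lower, where 8.49% and 9.81% of all genes tested were, so the share higher was near that of all genes. Higher were Ssbp1, the single-stranded DNA binding protein of mitochondria, at 2.73-fold (2.07 to 3.62), and Tefm, the transcription elongation factor, at 2.59-fold (2.08 to 3.23). The other 2, singled out after their values were seen, had few counts: Tfam, the transcription and packaging factor of mitochondrial DNA, had 28 and 60, and the rRNA methyltransferase Mrm1 had 0 and 20, all of them in Metaphase I replicate 19. The helicase Twnk and the RNA-binding protein Fastkd1 were 1.87-fold higher each, under the limit. Lower was Trmt10c, a subunit of mitochondrial RNase P, with 142 and 31 counts, 3.56-fold lower (2.40 to 5.43). The pseudouridine synthase Pus1 was 1.73-fold, the rRNA methyltransferase Nsun4 1.37-fold and the poly(A) polymerase Mtpap 1.28-fold lower. By medians over cells the genes did not follow 1 pattern. Twnk had 6.76 CPM in the median Pachytene cell and 13.7 in the median Metaphase I cell, a log2 ratio of 0.92 against 0.83 by sums. Tefm had 5.46 CPM in the median Pachytene cell and 5.24 in the median Metaphase I cell, and Mtpap 36.3 and 34.5. In the same order Ssbp1 had 1.29 and 1.46 CPM, Nsun4 3.63 and 3.47 and Trmt10c 0.219 and 0. The large summed folds of Ssbp1, Tefm and Trmt10c were thus not seen in the typical cell, and Trmt10c was near 0 in both groups. Pus1 turned, at 1.85 and 3.64 CPM, as did Fastkd1, at 1.42 and 0 CPM.

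Of 79 genes of the mitochondrial ribosome, 76 were measured, 2 were over 2-fold higher (8.49% of all genes) and 0 lower (9.81%), with a median of 0.18. The extremes were Mrpl49 (2.71-fold, 2.01 to 3.69) and Mrpl19 (2.41-fold, 1.95 to 3.00) on the higher side and Mrps12 (1.67-fold lower, 1.48 to 1.89) and Mrpl27 (1.33-fold lower, 1.09 to 1.63) on the lower side, all of them ribosomal proteins. Of the 19 tRNA synthetases that act in mitochondria all were measured and 2 were over 2-fold higher and 0 lower, again beside 8.49% and 9.81% of all genes, with a median of 0.66. They were Yars2 (2.27-fold, 1.94 to 2.67) and Pars2, with 0 and 22 counts, which was singled out after its values were seen. Hars2 was 2.05-fold higher (1.61 to 2.61) but at a log2 ratio of 0.93 did not pass once 1 CPM was added to each group. The lowest were Sars2 (1.16-fold lower, 0.826 to 1.65) and Fars2 (1.08-fold lower, 1.02 to 1.15). In the median Pachytene and Metaphase I cells Mrpl19 had 5.71 and 5.72 CPM and Hars2 7.56 and 7.61, so neither differed there. Mrpl49 had 0 and 2.22 CPM, Yars2 8.06 and 13.3, Mrps12 12.8 and 4.43 and Mrpl27 9.54 and 7.13, in the direction of their sums. By medians over cells the median log2 ratios of the factors, the ribosome and the synthetases were 0.05, -0.03 and 0.09, and without Metaphase I replicates 18 and 19 the sums gave 0.21, 0.18 and 0.56.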

How the data were processed

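Per gene and cell, the table deposited by the authors gives whole-number counts and exon coordinates, in the layout of featureCounts per the file headers. UMI-tools, STAR and featureCounts on GRCm38 are named in the submitters' processing notes without versions. The sources used here do not say if counts are reads or molecules, or which strand setting, annotation release and treatment of reads that match several places were used. If counts are reads, the intervals are too narrow. The labels' protocols describe a modified STRT-seq method with 3′ ends sequenced. The coordinates of all 37 genes are the same in GENCODE M21, from whose transcripts sequences were read. All 40 value columns matched a cell by name.

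Shares are counts over the column total, and CPM is per 1000000. Group sums were compared as a log2 ratio, Metaphase I over Pachytene, after adding 1 CPM, for genes that reached 20 counts over both groups. A fold over 2 was the rule of size. Shares have exact Clopper-Pearson and folds exact conditional binomial intervals at 95%. Exact matches were found with BLAST+ 2.17.0 (word size 28). Python 3.11.15, pandas 2.3.3, numpy 2.4.6, scipy 1.17.1 and edgeR 4.0.16 (TMM scaling) were used, and the code was tested on simulated data. Thinning to 340000 counts, near the 10th percentile of the totals, left out 1 Pachytene cell (replicate 5) and 3 Metaphase I cells (replicates 6, 7 and 18). All 780 pairs of libraries differed beyond sampling noise (chi-square per degree of freedom of 2.69 or more over 11047 genes). The table holds no cell barcodes, and no doublet caller was run on 40 cells. All rRNAs and mRNAs are named, the tRNAs with counts, and of each nuclear list the genes with the largest ratios on each side among those with a summed count of 100 or more (4 of the factors, 2 of the others). The genes and lists were chosen with earlier results of these data known. The separate marker lists of Leydig cells, spermatogonia and peritubular or blood cells summed to at most 162, 408 and 62.5 CPM in any library. Each of these maxima was in Metaphase I replicate 19.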

Additional observations from a re-analysis of the deposited data

How the results depend on the processing

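The direction of the summed differences depended on how cells were combined. The mRNA log2 ratio of 0.58 was 0.56 with equal weight per cell, 0.43 after thinning and 0.51 without the deepest cell of each group, but -1.11 by medians, -0.62 without the 8 libraries over 0.3% X-linked counts, -0.86 without Metaphase I replicates 18 and 19 and -0.88 without these and Pachytene replicates 4 and 5. The last 2 omissions were chosen after seeing the data. Single omissions gave -0.45 (without Metaphase I replicate 19) to 0.72. The rRNA log2 ratio of 0.42 was in the same order 0.28, 0.29, 0.38, -0.24, 0.11, -0.096 and -0.11, 0.40 with TMM scaling and 0.43 with totals without mitochondrial genes, and 0.049 to 0.48 over single omissions. The tRNA log2 ratio of 0.01 stayed within the counting interval, at -0.20 to 0.15 over single omissions. The 2 genes over 2-fold higher became 1 with TMM scaling, a pseudocount of 10 CPM or thinning and 0 by medians, without the 8, the 2 or the 4 libraries, and 0 to 3 over single omissions. The 0 genes over 2-fold lower became 2 by medians and without the 8, the 2 or the 4 libraries, and stayed 0 to 0 over single omissions. mt-Nd2 reversed from 1.01 to -0.45 by medians, -0.29 without the 8, -0.65 without the 2 and -0.67 without the 4 libraries, and mt-Nd5 from 1.15 to -0.70, -0.31, -0.73 and -0.74. Over single omissions they ran from -0.18 to 1.15 and from -0.23 to 1.28, lowest without Metaphase I replicate 19. The cause of these changes was not tested. Thinning also left out Pachytene replicate 5 and Metaphase I replicates 6, 7 and 18. Depth and these omissions therefore cannot be told apart in the thinned values. No paired analysis was possible because the replicate numbers only name cells and no result comes from a test. Depth limits mt-Nd3 and the tRNAs.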

Other observations

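CT010467.1, a nuclear rRNA locus in GENCODE M21, was set beside the mitochondrial rRNAs. It held 0.919% of all counts in the median Pachytene cell (0.535% to 6.54%) and 1.02% in the median Metaphase I cell (0.559% to 9.21%). Its highest cells were Pachytene replicate 5 and Metaphase I replicate 18, which also stood apart in mitochondrial rRNA share, while Metaphase I replicate 19, with the highest mitochondrial share, had 2.76%. Over the 40 cells the Spearman correlation of the locus with the mitochondrial rRNA share was 0.47, given as a description of values that share a library. Pachytene replicate 4, with the lowest mitochondrial share, had 0.735% of its counts on this locus and 24727 CPM of spermatocyte markers.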
